A study of Mus musculus with 4 samples.

Results

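The H2 genes form the major histocompatibility complex (MHC) of the mouse on chromosome 17. They were taken as every row of the deposited expression table that lies on chromosome 17 and has a name starting with H2-. This gave 42 genes of 22686 in the table. Of these, 3 are class Ia genes (H2-K1, H2-D1 and H2-L), 28 are class Ib genes and 10 are class II genes. The remaining gene, H2-Ke6, lies in the complex and encodes a hydroxysteroid dehydrogenase, so it is carried as an H2-named gene outside both classes. RNA came from 4 libraries of mouse EpiSCs, female epiblast stem cells, which are pluripotent and were derived here from epiblasts of embryonic day 6.5. The 4 libraries were Smchd1 MD1/MD1 XistdeltaA/+, Smchd1 +/+ XistdeltaA/+, Smchd1 MD1/MD1 Xist1lox/+ and Smchd1 +/+ Xist1lox/+, so every library carried a mutation of Xist on 1 X chromosome. SmcHD1, a protein of chromatin, is needed for silencing on the inactive X, Xist is the noncoding RNA that coats it, and MD1 is the allele of the libraries described as deficient for SmcHD1. All cells came from a cross of C57BL6/J with an F1 of JF1 and C57BL6/J. A father of that F1 type can pass on chromosome segments of either strain, and paternal reads can be told apart only where the segment is of the JF1 type. Each combined genotype had 1 library, so no ratio within a pair has a replicate check. The sources used here do not say whether a library stands for 1 EpiSC line or several.

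Smchd1 itself had 6.68 FPKM (fragments per kilobase of transcript and sequencing depth) in MD1/MD1 and 27.0 FPKM in +/+ with XistdeltaA/+, and 5.98 FPKM in MD1/MD1 and 20.9 FPKM in +/+ with Xist1lox/+. The 8 markers of epiblast stem cells were all detected in every library, with summed levels of 1031 to 1569 FPKM, and Pou5f1 stood at 551 to 984 FPKM. Markers of macrophages were detected as well, and unevenly. The 13 macrophage genes in the table summed to 975 FPKM in MD1/MD1 and 23.9 FPKM in +/+ with XistdeltaA/+, and to 313 FPKM in MD1/MD1 and 344 FPKM in +/+ with Xist1lox/+. In +/+ XistdeltaA/+ 4 of them, Tyrobp included, were listed at 0, and none was at 0 in the other libraries. The 8 fibroblast markers summed to 120 FPKM in MD1/MD1 XistdeltaA/+ and to 43.1 to 57.9 FPKM in the other libraries. Markers of dendritic and B cells, of T and NK cells and of endothelium summed to at most 1.86 FPKM in any library. Allele-assigned reads, which cover a variant between the strains, numbered 7301034 to 8008500 per library, and 3614 to 4982 of them fell on H2 genes.

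Class Ia molecules are heavy chains that pair with beta-2-microglobulin, load peptides of cytosolic proteins in the endoplasmic reticulum and show them to CD8 T cells at the surface. Class Ib molecules have the same fold and more specialised ligands. Class II molecules are pairs of an alpha and a beta chain that show peptides of endocytosed proteins to CD4 T cells, and they are made mainly by antigen-presenting cells under control of the transactivator CIITA. Pluripotent cells and early embryos are known for low surface MHC, and class I transcription is driven by NLRC5, NF-kB and interferon-induced factors acting on the promoter.

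The promoters of 31 H2 genes were found among the RefSeq promoters of build GRCm38.p6. Of these, 5 are shown because they carry class I promoter motifs and because the levels of their genes are described below. Each is the 250 bases before the annotated start, written 5' to 3' on the strand of the gene. H2-K1 lies on the minus strand (chr17:34000348-34000597), and the other genes lie on the plus strand: H2-D1 (chr17:35262844-35263093), H2-Q4 (chr17:35379367-35379616), H2-Q7 (chr17:35438905-35439154) and H2-M3 (chr17:37269984-37270233). These positions are in GRCm38.p6, while gene positions given elsewhere in the text are in mm9. Capitals mark 3 motifs searched on both strands: the NF-kB letters GGGATTCCC, the interferon response letters GTTTCACTT, and the CCAAT box, whose capitals read as its reverse complement where it lies on the other strand. No matches of different motifs overlap in these 5 promoters.
H2-K1: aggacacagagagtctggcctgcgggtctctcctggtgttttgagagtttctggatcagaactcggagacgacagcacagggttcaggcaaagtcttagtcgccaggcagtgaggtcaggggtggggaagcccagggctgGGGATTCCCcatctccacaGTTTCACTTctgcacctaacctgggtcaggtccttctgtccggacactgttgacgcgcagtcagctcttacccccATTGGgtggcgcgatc
H2-D1: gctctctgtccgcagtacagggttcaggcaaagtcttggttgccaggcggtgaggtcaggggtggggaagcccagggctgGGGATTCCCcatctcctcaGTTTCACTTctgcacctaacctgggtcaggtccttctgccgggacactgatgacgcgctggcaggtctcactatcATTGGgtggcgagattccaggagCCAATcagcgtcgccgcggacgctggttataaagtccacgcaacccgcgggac
H2-Q4: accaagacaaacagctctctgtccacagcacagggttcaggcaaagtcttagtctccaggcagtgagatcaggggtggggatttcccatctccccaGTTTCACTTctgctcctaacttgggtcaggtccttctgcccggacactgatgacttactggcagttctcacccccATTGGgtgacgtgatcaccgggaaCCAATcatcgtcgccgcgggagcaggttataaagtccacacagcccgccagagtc
H2-Q7: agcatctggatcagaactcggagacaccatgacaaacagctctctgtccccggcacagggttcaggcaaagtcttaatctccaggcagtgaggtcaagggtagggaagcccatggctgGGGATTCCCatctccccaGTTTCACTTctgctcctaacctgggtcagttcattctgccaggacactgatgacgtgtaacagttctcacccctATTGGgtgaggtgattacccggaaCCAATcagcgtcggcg
H2-M3: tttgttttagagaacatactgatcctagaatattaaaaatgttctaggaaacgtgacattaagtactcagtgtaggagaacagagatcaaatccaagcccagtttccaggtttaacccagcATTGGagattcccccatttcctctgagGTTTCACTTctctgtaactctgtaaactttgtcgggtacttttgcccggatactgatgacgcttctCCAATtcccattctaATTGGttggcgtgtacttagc

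The NF-kB letters were found in the promoters of H2-K1, H2-D1, H2-Q6 and H2-Q7, which are 4 of the 31, against 0.301% of all 32851 RefSeq promoters. The interferon response letters were found in 9 of 31, against 0.338% of all promoters, and CCAAT in 27 of 31, against 33.8%. The NF-kB and interferon response letters were searched as class I promoter motifs, so their shares of all promoters cannot test enrichment. Of 239 short runs of bases per promoter, 31.8% in H2-D1, 16.3% in H2-Q7 and 14.6% in H2-Q6 also occur in H2-K1. The 4 NF-kB matches are thus not independent. H2-Q4, without the NF-kB letters, also shares 14.6%. In H2-K1 the NF-kB letters begin 110 bases and the interferon response letters 91 bases before the start. Both motifs sit 60 bases farther from the annotated start in H2-D1, at 170 and 151 bases. The H2-K1 window ends soon after ATTGGgtggcg, which H2-D1 also holds, with a further CCAAT behind it. These distances thus depend on where the starts are annotated, and the H2-K1 window does not show whether a further CCAAT follows. H2-Q4 reads ggggatttccc before its interferon response letters, which is not counted as an exact match. H2-Q4 and H2-M3 have the interferon response letters and CCAAT but not the exact NF-kB letters. These matches describe the letters of the windows and say nothing of which factor was bound in EpiSCs.

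A first result concerned how many H2 genes were detected in these EpiSC libraries. Markers of macrophages and fibroblasts were detected in them as well, and which cells the H2 transcripts came from was not tested. Of the 42 genes, 17 had a mean of at least 1 FPKM over the 4 libraries and 21 stayed under 1 FPKM in every library, including 10 that were listed at 0 throughout. The other 4 (H2-L, H2-Q5, H2-Q6 and H2-Q9) passed 1 FPKM in at least 1 library and had means below it. The expressed genes were class Ia (H2-K1 and H2-D1), 5 of 9 Q genes, 3 of 6 T rows, H2-K2, 1 gene of the M region and 4 class II genes, with H2-Ke6. Class I genes together summed to 281 FPKM in MD1/MD1 and 163 FPKM in +/+ with XistdeltaA/+, and to 241 FPKM in MD1/MD1 and 197 FPKM in +/+ with Xist1lox/+. Class II genes summed to 18.3 FPKM in MD1/MD1 and 17.03 FPKM in +/+ with XistdeltaA/+, and to 26.4 FPKM in MD1/MD1 and 20.03 FPKM in +/+ with Xist1lox/+. Class I was thus above class II in every library, and the class I sum was higher in MD1/MD1 than in +/+ in both pairs, by 1.72-fold and 1.22-fold. Without 10 class I genes flagged for shared sequence or a shared locus these folds were 1.26 and 1.05. The 10 include H2-D1, flagged for its overlap with H2-L and not for its sequence (4.64% of stretches shared). With H2-D1 and H2-L kept in, the folds were 1.76 and 1.04. In bulk RNA, fewer cells of a type and less RNA per cell cannot be told apart.

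**Figure D1:**
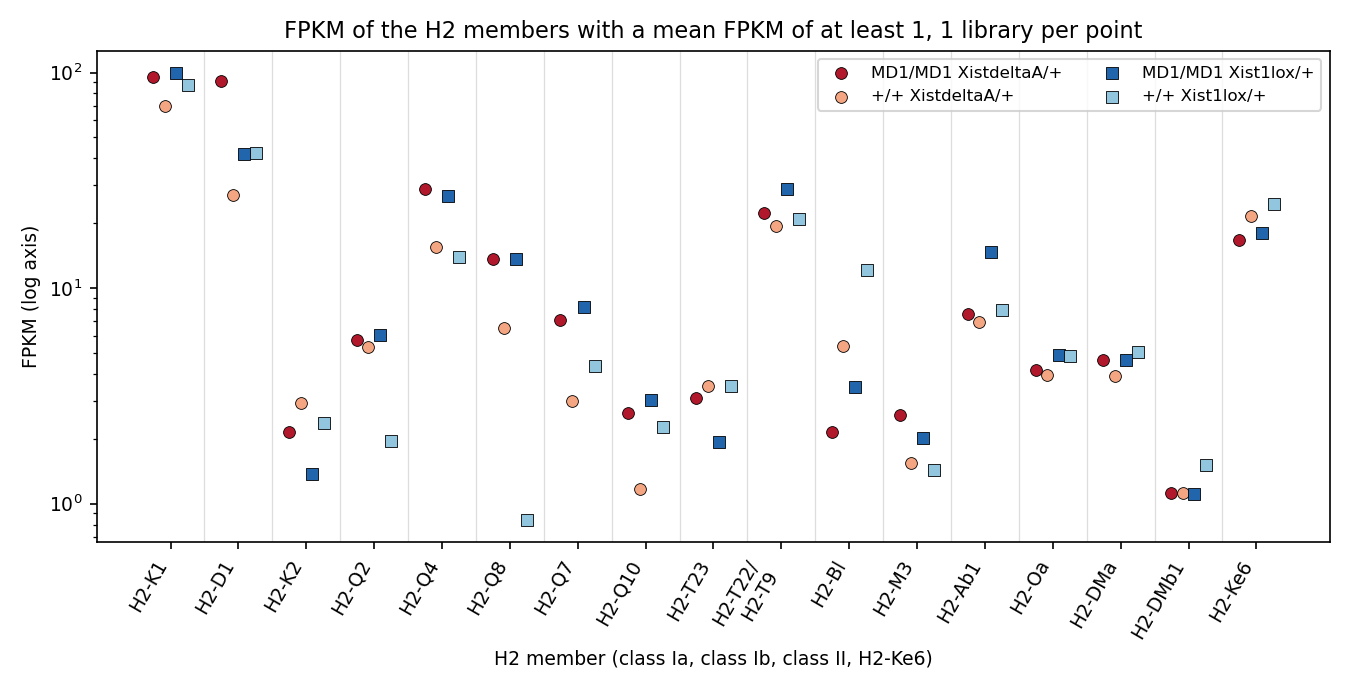
FPKM of the expressed H2 genes in each of the 4 libraries on a log axis, 1 point per library and gene, with MD1/MD1 left of +/+ within each Xist mutation. H2-K1 stood between 70.0 and 99.5 FPKM in all 4 libraries, while H2-D1 ranged between 27.1 and 91.0 FPKM.

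Reads of paternal origin were found along chromosome 17 in a pattern that differed between the libraries. Along chromosome 17, genes of the first 10 Mb had median paternal shares of 46.7% to 51.8% in all 4 libraries. In every later window of 10 Mb the median share was under 1% in both MD1/MD1 libraries, against 39.5% to 50.6% in both +/+ libraries. The H2 genes lie in such a window, between 34111604 and 37620474 (mm9). In each of the 4 libraries, 61 other genes of that interval held at least 20 allele-assigned reads, and these had median paternal shares of 0.742% in MD1/MD1 and 50.6% in +/+ with XistdeltaA/+, and of 0.186% in MD1/MD1 and 49.3% in +/+ with Xist1lox/+. Pooled over reads of these 61 genes, the shares were 1.03% in MD1/MD1 and 50.8% in +/+ with XistdeltaA/+, and 0.368% in MD1/MD1 and 49.8% in +/+ with Xist1lox/+. Over these genes both MD1/MD1 libraries thus read almost wholly as C57BL6/J-type, and both +/+ libraries carried copies of both types. As a result, Smchd1 genotype and H2 haplotype cannot be told apart in any comparison of H2 levels below.

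Of the 42 H2 genes, 10 had at least 20 allele-assigned reads in every library, and 20 had none in any. Their paternal share was lower in MD1/MD1 for 10 of 10 genes with XistdeltaA/+ and for 9 of 10 with Xist1lox/+ (Fisher's exact test, two-sided, with Benjamini-Hochberg adjustment over 9923 genes). Over all genes 37.3% and 37.2% were called in the 2 pairs, with 20% and 16.1% called lower. The exception was H2-M3, with 0 paternal reads of 68 in MD1/MD1 and 2 of 46 in +/+ with Xist1lox/+ (adjusted p = 0.321 by Fisher's exact test). Among the other 61 genes of the interval, 60 and 61 were called lower, so the lower share was that of the whole interval. These tests compare the reads of those libraries and not the conditions, and all intervals given cover counting error alone.

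Within the +/+ libraries, where both copies were present, H2 genes were often far from an even split. A paternal share of at most 33.3% in both +/+ libraries was found for 5 of the 10 H2 genes, against 5.16% of 6455 autosomal genes in windows with both alleles. A share of at least 66.7% in both was found for 2 of the 10, against 1.91% of those genes. The members nearest to even were H2-Ke6, with 51.5% and 52.2%, and H2-Oa, the alpha chain of the class II modulator DO, with 55% and 50% in +/+ XistdeltaA/+ and +/+ Xist1lox/+. Whether reads of the JF1 type were assigned as completely as reads of the C57BL6/J type in genes this polymorphic was not tested. Macrophage markers in +/+ summed to 23.9 FPKM with XistdeltaA/+ and 344 FPKM with Xist1lox/+. The part of such cells in these shares was not tested either.

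The lowest paternal shares in +/+ were those of H2-Ab1 and H2-M3. H2-Ab1, the beta chain of the class II molecule I-A, had 1 paternal read of 246 in MD1/MD1 XistdeltaA/+ and 1 of 406 in MD1/MD1 Xist1lox/+, against 8 of 219 (3.65%, 95% exact binomial interval 1.59 to 7.07) in +/+ XistdeltaA/+ and 13 of 231 (5.63%, 3.03 to 9.43) in +/+ Xist1lox/+. The differences between MD1/MD1 and +/+ were small and passed the test (adjusted p = 0.0413 and 4.56e-05 by Fisher's exact test). Almost all assigned H2-Ab1 reads of the +/+ libraries were thus of the C57BL6/J type. H2-M3, which presents N-formylated peptides, had 0 paternal reads in both MD1/MD1 libraries, of 92 and 68, which allows up to 3.26% and 4.41%. In +/+ it had 7.41% (2.06 to 17.9) and 4.35% (0.531 to 14.8).

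Among the 10 genes tested, the highest paternal shares in +/+ were those of H2-K2 and H2-DMb1. H2-K2, annotated as a pseudogene next to H2-K1, had 0 paternal reads of 49 in MD1/MD1 and a share of 79.6% (69.9 to 87.2) in +/+ with XistdeltaA/+. With Xist1lox/+ the share was 2.44% in MD1/MD1 and 74.1% (61.0 to 84.7) in +/+. H2-DMb1, a beta chain of the peptide editor DM, had 3.13% in MD1/MD1 and 70.6% (52.5 to 84.9) in +/+ with XistdeltaA/+, and 0 paternal reads of 26 in MD1/MD1 against 78.0% (65.3 to 87.7) in +/+ with Xist1lox/+. Its partner H2-DMa was nearer to even, with 44.0% and 57.8% in the +/+ libraries.

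**Figure D2:**
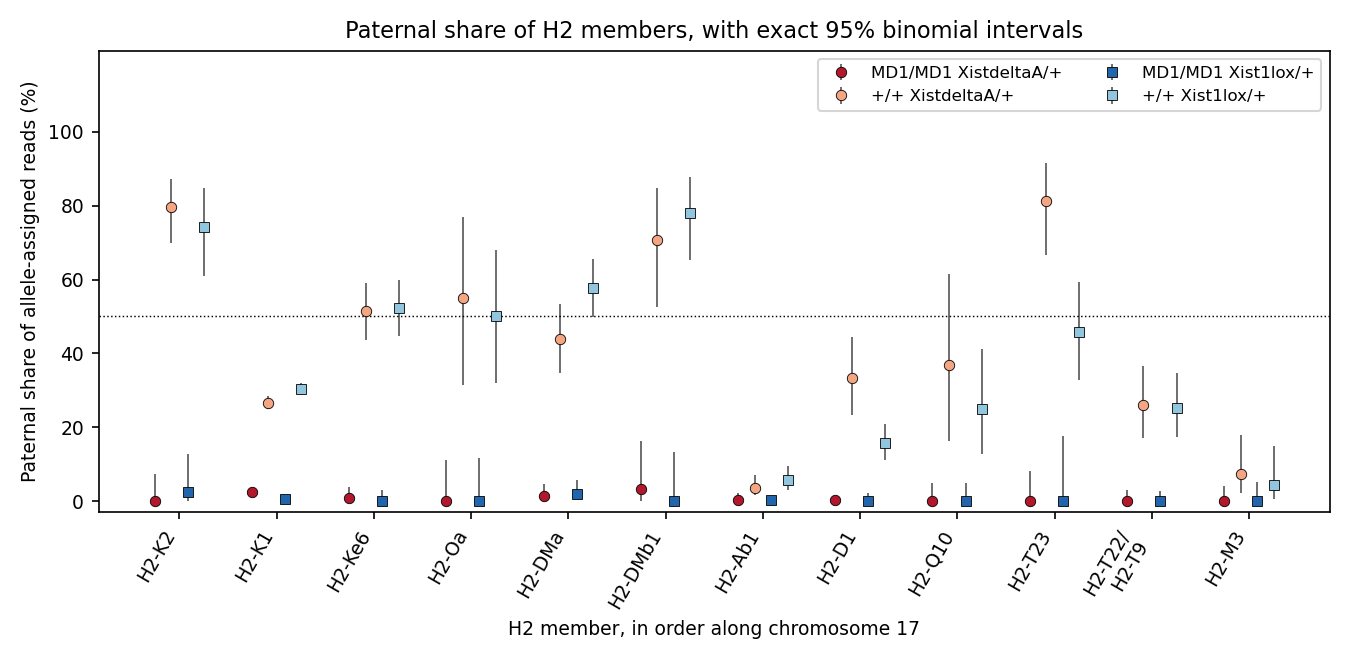
Paternal share of allele-assigned reads (percent) for 12 H2 genes in order along chromosome 17, with exact 95% binomial intervals and 1 point per library. MD1/MD1 points lie near 0 throughout, while +/+ points range between 3.65% for H2-Ab1 and 81.4% for H2-T23.

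Of the class Ia genes, H2-K1 was the most abundant H2 transcript in every library. H2-K1 (34132957 to 34137278) had 94.97 FPKM in MD1/MD1 and 70.0 FPKM in +/+ with XistdeltaA/+, and 99.5 FPKM in MD1/MD1 and 87.9 FPKM in +/+ with Xist1lox/+. Both MD1/MD1 libraries lay above both +/+ libraries, with log2 ratios of 0.43 and 0.18 on the log2(FPKM + 1) scale. The limma estimate of the difference was 0.31 ± 0.16 (log2, SE), with an adjusted p of 0.937 over 11471 genes. None of its stretches of 100 transcript bases occurs in another reference transcript. How completely its reads of the JF1 type were placed was not tested.

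The paternal share of H2-K1 rested on 2628 to 3488 reads per library. It was 2.41% (1.93 to 2.97) in MD1/MD1 and 26.7% (24.99 to 28.4) in +/+ with XistdeltaA/+, and 0.471% (0.269 to 0.763) in MD1/MD1 and 30.5% (28.9 to 32.1) in +/+ with Xist1lox/+. The share in MD1/MD1 was lower in both pairs, and the size of the difference was larger with Xist1lox/+ (adjusted p = 7.7e-10 for the difference of log odds ratios). H2-K1 was the only 1 of the 10 H2 genes for which both pairs differed in this test, against 29.3% of all genes and 7 of the 61 other genes of the interval. It also had by far the most reads of the 10, and the others had 20 to 457 per library. Their differences of log odds ratios ranged between -1.32 and 1.61, against -1.81 for H2-K1, so being the only gene called cannot be told apart from depth. Within MD1/MD1 the residual paternal share of H2-K1 was higher with XistdeltaA/+, as was the pooled share of those 61 genes (1.03% and 0.368%, as above). The difference of log odds ratios thus depends on residual reads as well as on the +/+ shares. FPKM multiplied by the maternal share, a level of C57BL6/J-type transcript, was 92.7 in MD1/MD1 and 51.4 in +/+ with XistdeltaA/+, and 99.0 in MD1/MD1 and 61.1 in +/+ with Xist1lox/+. The level in +/+ was thus 55.4% and 61.7% of that in MD1/MD1, where almost no JF1-type reads were found. The same quotient was 48.0% and 46.7% for H2-DMa, 42.2% and 49.8% for H2-Oa, and 63.2% and 65.4% for H2-Ke6. It was lower and nearly the same in both pairs for H2-DMb1, with 30.5% and 29.9%. It differed more between the pairs for H2-D1, with 19.9% and 85.0%, H2-Ab1, with 89.1% and 51.0%, and H2-K2, with 27.8% and 45.7%. Over the 12 genes with shares it ranged between 19.9% and 89.1% with XistdeltaA/+ and between 29.9% and 97.9% with Xist1lox/+.

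H2-D1, the second class Ia heavy chain (35400039 to 35404442), differed in 1 pair alone. It had 91.0 FPKM in MD1/MD1 and 27.1 FPKM in +/+ with XistdeltaA/+, but 42.1 FPKM in MD1/MD1 and 42.4 FPKM in +/+ with Xist1lox/+. Its log2 ratios were thus 1.71 and -0.01, and limma gave 0.85 ± 0.40 (log2, SE) with an adjusted p of 0.937. Its allele-assigned reads, 457 in MD1/MD1 and 84 in +/+ with XistdeltaA/+, against 163 in MD1/MD1 and 231 in +/+ with Xist1lox/+, gave log2 ratios, each scaled to its library total, of 2.41 and -0.40. The library with most H2-D1 was also the library with the highest summed macrophage markers (975 FPKM), and the library with least H2-D1 had the lowest (23.9 FPKM). Lyz2, a macrophage lysozyme, had 799 FPKM in MD1/MD1 and 0.384 FPKM in +/+ with XistdeltaA/+, and 247 FPKM in MD1/MD1 and 274 FPKM in +/+ with Xist1lox/+. The same libraries were highest and lowest for the fibroblast sum (120 and 43.1 FPKM) and for B2m (98.1 and 67.3 FPKM). They were so for the epiblast markers Sox2 and Dnmt3b too, though not for Pou5f1 or Nanog. That order of libraries was thus not particular to macrophage markers. The part of macrophages or other cells in the H2-D1 levels was not tested.

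The paternal share of H2-D1 also differed between the +/+ libraries. It was 15.6% (11.2 to 20.9) in +/+ Xist1lox/+ and 33.3% (23.4 to 44.5) in +/+ XistdeltaA/+ (adjusted p = 0.00414 by Fisher's exact test, chosen after the values had been seen). H2-K1 was the other H2 gene called in that comparison, with 30.5% in +/+ Xist1lox/+ and 26.7% in +/+ XistdeltaA/+ (adjusted p = 0.00699). Those are 2 of 10 H2 genes, against 25.1% of all genes, and they lie in opposite directions. The part of macrophages or other cells in these shares was not tested. With a minimum of 10 reads 3 of 12 were called, H2-T23 being added. H2-L, a class Ia gene that the C57BL/6 haplotype lacks, is listed over the same interval as H2-D1 (35400068 to 35403675). It had 1.37 FPKM in MD1/MD1 XistdeltaA/+ and close to 0 in the other libraries, and reads of the pair could have been split between both rows.

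In the Q region, 9 class Ib genes lie side by side, and several share stretches of sequence. Of 100-base stretches 12.9% to 14.6% occur elsewhere for H2-Q4, H2-Q5, H2-Q6 and H2-Q7, 8.80% for H2-Q10 and none for H2-Q2. Their summed level was 60.1 FPKM in MD1/MD1 and 32.8 FPKM in +/+ with XistdeltaA/+, and 60.4 FPKM in MD1/MD1 and 25.3 FPKM in +/+ with Xist1lox/+. Both MD1/MD1 sums lay above both +/+ sums, by 1.83-fold and 2.39-fold. All 5 Q genes that were expressed (H2-Q2, H2-Q4, H2-Q7, H2-Q8 and H2-Q10) were higher in MD1/MD1 in both pairs, with medians of 0.84 and 0.89 on the log2 scale, against -0.05 and 0.00 over all genes tested. These rows are not independent, since reads of near-identical copies can be moved between them.

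H2-Q4, which encodes a secreted class Ib protein (35516562 to 35521619), was the most abundant of them. It had 28.7 FPKM in MD1/MD1 and 15.6 FPKM in +/+ with XistdeltaA/+, and 26.7 FPKM in MD1/MD1 and 14.0 FPKM in +/+ with Xist1lox/+. The 2 MD1/MD1 values agreed closely and lay above both +/+ values, with folds of 1.84 and 1.92. The limma estimate was 0.87 ± 0.17 (log2, SE), with an unadjusted p of 0.00286 and an adjusted p of 0.937. H2-Q4 had no allele-assigned read in any library, and 14.6% of its stretches of 100 bases occur in other transcripts.

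H2-Q7 and H2-Q9 are listed over the same locus (35576100 to 35580718) and encode the GPI-anchored Qa-2 antigen, as do H2-Q6 and H2-Q8. H2-Q7 had 7.14 FPKM in MD1/MD1 and 3.005 FPKM in +/+ with XistdeltaA/+, and 8.18 FPKM in MD1/MD1 and 4.37 FPKM in +/+ with Xist1lox/+. Summed with H2-Q9, the locus had 8.01 FPKM in MD1/MD1 and 3.48 FPKM in +/+, and 9.53 FPKM in MD1/MD1 and 4.89 FPKM in +/+, which are folds of 2.30 and 1.95. The sum of the locus was thus higher in MD1/MD1 in both pairs however its reads were split between its rows. It does not cover reads shared with other genes, in which 13.5% of H2-Q7 stretches occur.

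H2-Q6 and H2-Q8 also share a locus (35561792 to 35565306), and there the split between rows mattered. H2-Q8 had 13.6 FPKM in MD1/MD1 and 6.55 FPKM in +/+ with XistdeltaA/+, but 13.7 FPKM in MD1/MD1 and 0.842 FPKM in +/+ with Xist1lox/+, a fold of 16.3 in the second pair. In that same +/+ Xist1lox/+ library H2-Q6 had 1.25 FPKM, and it had under 0.01 FPKM in the other libraries. The sum of both rows was 13.6 FPKM in MD1/MD1 and 6.55 FPKM in +/+ with XistdeltaA/+, and 13.7 FPKM in MD1/MD1 and 2.09 FPKM in +/+ with Xist1lox/+. Its fold in the second pair was 6.56, so part of the H2-Q8 ratio moved with the split. The limma estimate for H2-Q8 was 1.98 ± 0.48 (log2, SE), with an unadjusted p of 0.00834 and an adjusted p of 0.937. Without the +/+ XistdeltaA/+ library and with no Xist term it was 2.99 with an adjusted p of 0.00228. The +/+ arm of that fit is the 1 library with reads listed under H2-Q6, and its spread is assumed to equal that of the 2 MD1/MD1 libraries.

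The other Q genes gave smaller or less steady ratios. H2-Q2 had 5.75 FPKM in MD1/MD1 and 5.32 FPKM in +/+ with XistdeltaA/+, and 6.07 FPKM in MD1/MD1 and 1.95 FPKM in +/+ with Xist1lox/+, so that a single +/+ library stood apart. H2-Q10, a secreted class Ib molecule known from liver, had 2.63 FPKM in MD1/MD1 and 1.17 FPKM in +/+ with XistdeltaA/+, and 3.02 FPKM in MD1/MD1 and 2.27 FPKM in +/+ with Xist1lox/+. Its paternal share was 0 of 72 reads in MD1/MD1 and 36.8% (16.3 to 61.6) in +/+ with XistdeltaA/+, and 0 of 75 in MD1/MD1 and 25% (12.7 to 41.2) in +/+ with Xist1lox/+. With a minimum of 10 reads in place of 20 the lower share in MD1/MD1 was called in both pairs (adjusted p = 2.62e-05 and 3.86e-05 by Fisher's exact test). H2-Q5 and H2-Q9 had means under 1 FPKM, although each passed 1 FPKM in at least 1 MD1/MD1 library, and H2-Q1 stayed at or under 0.130 FPKM.

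**Figure D3:**
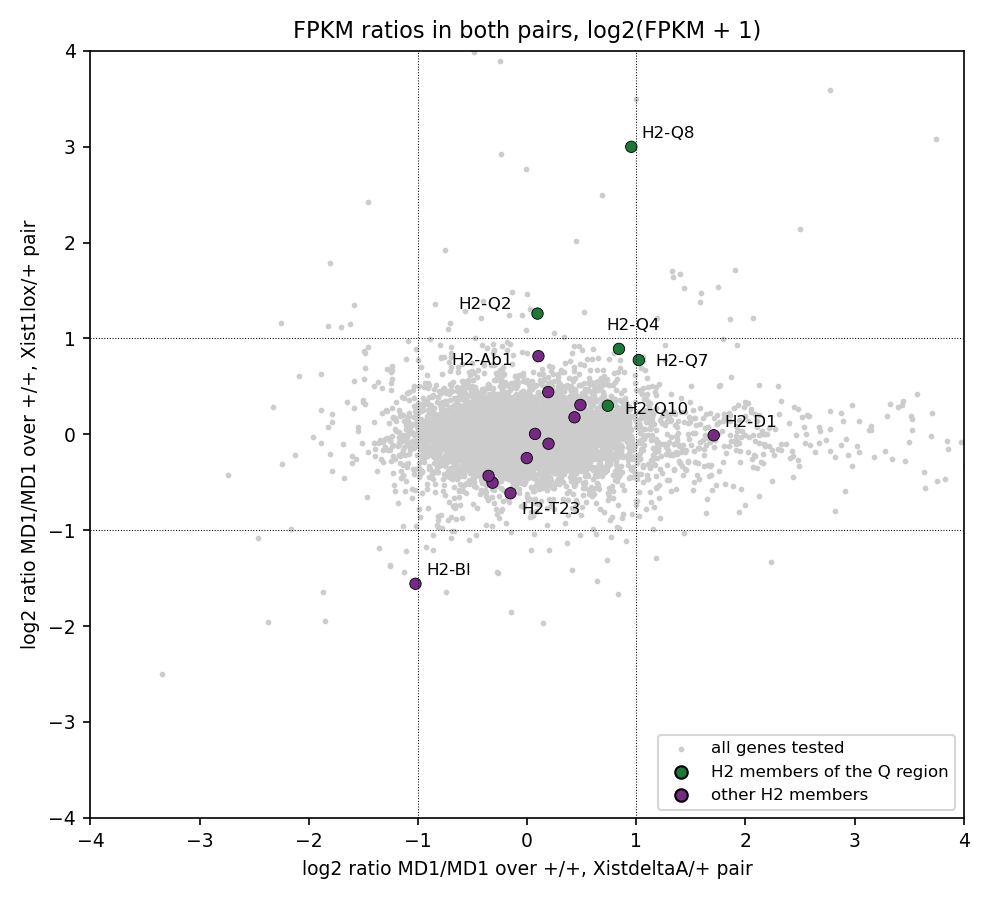
Log2 ratio of MD1/MD1 over +/+ on log2(FPKM + 1) in the XistdeltaA/+ pair (x axis) and the Xist1lox/+ pair (y axis) for all 11471 genes tested (grey), H2 genes of the Q region (green) and other H2 genes (purple). The 5 Q genes lie above 0 on both axes and H2-Bl lies below -1 on both, and 19 genes lie outside the plotted range of 4 either way.

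The T region held the H2 gene that was lower in MD1/MD1 in both pairs by the largest ratio. H2-Bl, first described as blastocyst MHC (36217134 to 36221194), had 2.14 FPKM in MD1/MD1 and 5.38 FPKM in +/+ with XistdeltaA/+, and 3.47 FPKM in MD1/MD1 and 12.2 FPKM in +/+ with Xist1lox/+. Both MD1/MD1 values lay below both +/+ values, at 0.398 and 0.285 of +/+. The limma estimate was -1.29 ± 0.23 (log2, SE), with an unadjusted p of 0.00210 and an adjusted p of 0.791. Its allele-assigned reads did not follow its FPKM. They numbered 24 in MD1/MD1 Xist1lox/+, the library with the third highest FPKM, and 0 in the other libraries. Of those 24 reads, 6 were paternal (25%, 9.77 to 46.7), unlike the low shares of the other H2 genes in MD1/MD1. edgeR on these reads with no filter gave a log2 difference of 6.56, opposite to that in FPKM, with an adjusted p of 0.982. H2-Bl was also the only H2 gene with an unadjusted p under 0.05 for the Xist mutation, with 0.78 (log2) for Xist1lox/+ over XistdeltaA/+.

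The T22 and T9 genes, listed in 1 row, encode ligands of gamma delta T cell receptors. Their row had 22.3 FPKM in MD1/MD1 and 19.4 FPKM in +/+ with XistdeltaA/+, and 28.9 FPKM in MD1/MD1 and 21.0 FPKM in +/+ with Xist1lox/+. The paternal share was 0 of 125 and 0 of 132 reads in the MD1/MD1 libraries, which allows up to 2.40% and 2.27%, and 25.9% and 25.2% in the +/+ libraries. As many as 38.1% of the stretches of the H2-T22 transcript occur elsewhere, so the row is uncertain. H2-T23, the Qa-1 molecule that is read by receptors of NK cells, had 3.08 FPKM in MD1/MD1 and 3.53 FPKM in +/+ with XistdeltaA/+, and 1.94 FPKM in MD1/MD1 and 3.497 FPKM in +/+ with Xist1lox/+. Its paternal share in +/+ was 81.4% (66.6 to 91.6) with XistdeltaA/+ and 45.8% (32.7 to 59.2) with Xist1lox/+, on 43 and 59 reads. MD1/MD1 Xist1lox/+ had 19 reads of it, so it was tested with a minimum of 10 reads in place of 20. The lower share in MD1/MD1 was then called in both pairs (adjusted p = 1.08e-15 and 0.000485 by Fisher's exact test), as was the lower share in +/+ Xist1lox/+ than in +/+ XistdeltaA/+ (adjusted p = 0.00215). H2-T10 had at most 0.462 FPKM, and H2-T24 and H2-T3 stayed below 0.1 FPKM. The T region as a whole summed to 28.1 FPKM in MD1/MD1 and 28.6 FPKM in +/+ with XistdeltaA/+, and to 34.6 FPKM in MD1/MD1 and 37.0 FPKM in +/+ with Xist1lox/+. The Q sums were above 1.8-fold in both pairs while the T sums were at 0.982 and 0.937 of +/+. Both T sums fell by fewer FPKM than the H2-Bl row alone, whose allele-assigned reads did not follow its FPKM. The other T rows together were thus higher in MD1/MD1 in both pairs. Among them the T22 and T9 row was higher in both, and H2-T23 was lower in both.

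In the M region, 11 of 12 genes had means under 1 FPKM. Most belong to the M10 group, known from sensory neurons of the vomeronasal organ, and those 6 genes were at 0 in every library. H2-M3 was the exception, with 2.57 FPKM in MD1/MD1 and 1.55 FPKM in +/+ with XistdeltaA/+, and 2.01 FPKM in MD1/MD1 and 1.43 FPKM in +/+ with Xist1lox/+. Its log2 ratios were 0.49 and 0.31. The pseudogene H2-K2 had 2.15 FPKM in MD1/MD1 and 2.92 FPKM in +/+ with XistdeltaA/+, and 1.38 FPKM in MD1/MD1 and 2.38 FPKM in +/+ with Xist1lox/+, which placed both MD1/MD1 values below both +/+ values.

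The class II genes were led by a beta chain without its partner. H2-Ab1 (34400172 to 34406363) had 7.55 FPKM in MD1/MD1 and 6.95 FPKM in +/+ with XistdeltaA/+, and 14.6 FPKM in MD1/MD1 and 7.89 FPKM in +/+ with Xist1lox/+. The MD1/MD1 Xist1lox/+ library stood apart, and the other 3 lay close together. H2-Aa, the alpha chain that pairs with it in I-A, stayed between 0.218 and 0.320 FPKM in all 4 libraries. H2-Eb1, a beta chain of the I-E molecule, had at most 0.691 FPKM, H2-Eb2 at most 0.126 FPKM, and H2-Ea-ps, the alpha chain gene of I-E that is not functional in C57BL/6 mice, was at 0. Cd74, the invariant chain that escorts class II molecules, had 0.569 to 1.09 FPKM, and the transactivator gene Ciita was at 0 in every library. The library with the highest H2-Ab1 had 313 FPKM of summed macrophage markers, and the library with 975 FPKM of them had 7.55 FPKM of H2-Ab1.

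Of the genes of the DM and DO modulators, which edit the peptides held by class II, H2-DMa, H2-Oa and H2-DMb1 were expressed, at low levels. H2-DMa had 4.63 FPKM in MD1/MD1 and 3.92 FPKM in +/+ with XistdeltaA/+, and 4.64 FPKM in MD1/MD1 and 5.03 FPKM in +/+ with Xist1lox/+, so its direction differed between the pairs. H2-Oa had 4.19 FPKM in MD1/MD1 and 3.93 FPKM in +/+ with XistdeltaA/+, and 4.88 FPKM in MD1/MD1 and 4.87 FPKM in +/+ with Xist1lox/+. H2-DMb1 had 1.11 to 1.51 FPKM in the 4 libraries. H2-Ob, the beta chain of DO, stayed at or under 0.0216 FPKM, and H2-DMb2, the second beta chain gene of DM, at or under 0.476 FPKM. H2-Ke6 had 16.7 FPKM in MD1/MD1 and 21.6 FPKM in +/+ with XistdeltaA/+, and 18.0 FPKM in MD1/MD1 and 24.6 FPKM in +/+ with Xist1lox/+, with both MD1/MD1 values below both +/+ values. Of its transcript stretches 91.96% also occur in Gm20427.

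Across all H2 genes, no level passed the adjusted threshold of 0.05. limma on log2(FPKM + 1), with Smchd1 genotype and Xist mutation as terms and 1 residual degree of freedom, called 0 of the 17 expressed H2 genes for Smchd1 genotype, against 0.0349% of 11471 genes (4 genes). At an unadjusted p under 0.05 there were 4 H2 genes (H2-Q4, H2-Q7 and H2-Q8 higher, H2-Bl lower), against 3.26% of all genes. edgeR and DESeq2 on allele-assigned reads called 0 of 14 H2 genes, against 0.043% and 0.189% of 11617 genes, with 1 and 0 at an unadjusted p under 0.05, against 2.62% by each, but these counts do not cover H2-Q4, H2-Q7 or H2-Q8, which had no such reads. For the Xist mutation limma called 0 H2 genes, against 0% of all genes, with 1 H2 gene (H2-Bl) and 3.21% of all genes at an unadjusted p under 0.05.

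By size alone, 2 H2 genes were at least 2-fold higher in MD1/MD1 with XistdeltaA/+ (H2-D1 and H2-Q7), against 3.91% of all genes, and 2 with Xist1lox/+ (H2-Q2 and H2-Q8), against 0.445%. No H2 gene was at least 2-fold higher in both pairs, against 0.131% of all genes. H2-Bl was at least 2-fold lower in each pair, against 1.82% and 0.375% of all genes, and 0.113% for both pairs together. By any amount, 10 of 17 H2 genes were higher in both pairs, against 23.6% of all genes, and 5 were lower in both, against 27.8%. The median log2 ratios of the 17 were 0.19 and 0.18, against -0.05 and 0.00 over all genes. The 78 other expressed genes of the interval had medians of 0.02 and -0.06.

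None of the genes that serve MHC molecules passed the test. Of 27 genes for class I assembly, the immunoproteasome, class II processing and MHC transcription, 24 were expressed, and limma called 0 of them, against 0.0349% of all genes, with 1 at an unadjusted p under 0.05, against 3.26%. With XistdeltaA/+ the level of 2 was higher in MD1/MD1 by at least 2-fold, against 3.91% of all genes, and that of 1 was lower, against 1.82%. With Xist1lox/+ none was 2-fold higher or lower, against 0.445% and 0.375% of all genes. The median log2 ratios of the 24 were -0.21 and -0.01, against -0.05 and 0.00 over all genes. B2m, the light chain of every class I molecule, had 98.1 FPKM in MD1/MD1 and 67.3 FPKM in +/+ with XistdeltaA/+, but 70.5 FPKM in MD1/MD1 and 94.3 FPKM in +/+ with Xist1lox/+. Nlrc5, the class I transactivator, stayed at or under 0.362 FPKM. The most abundant members were the endoplasmic reticulum chaperones Calr, at 378 to 523 FPKM, Canx, at 106 to 162 FPKM, and Pdia3, at 196 to 234 FPKM, with the lysosomal protease Ctsl at 142 to 292 FPKM. Ctss, the protease that trims the invariant chain and one of the genes more than 2-fold higher, had 61.5 FPKM in MD1/MD1 and 0.0436 FPKM in +/+ with XistdeltaA/+, and 19.3 FPKM in MD1/MD1 and 24.01 FPKM in +/+ with Xist1lox/+. Its highest and lowest libraries were those of the macrophage markers, whose part in its level was not tested. Of 18 interferon response genes 10 were expressed and limma called 0 of them, against 0.0349% of all genes. The summed level of the 18 genes was 155 FPKM in MD1/MD1 and 219 FPKM in +/+ with XistdeltaA/+, and 146 FPKM in MD1/MD1 and 216 FPKM in +/+ with Xist1lox/+. Most of that sum was Bst2, which restrains release of enveloped viruses, with 124 FPKM in each MD1/MD1 library against 192 and 188 FPKM in the +/+ libraries. With XistdeltaA/+ Bst2 fell by more FPKM than the sum, so the other genes together were not lower in MD1/MD1 there. With Xist1lox/+ Bst2 made most of the fall. The sum thus does not describe the list as a whole.

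**Figure D4:**
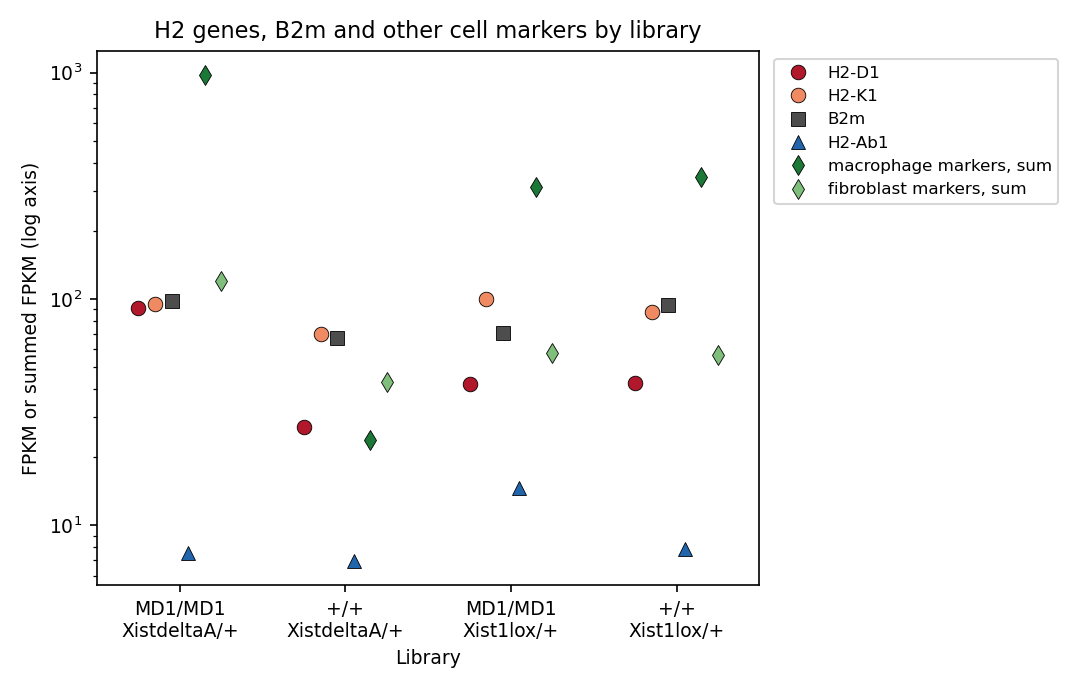
Summed FPKM of macrophage and fibroblast markers and the FPKM of H2-D1, H2-K1, B2m and H2-Ab1 in each library on a log axis, MD1/MD1 left of +/+ within each Xist mutation. The macrophage sum spans 23.9 to 975 FPKM with the same highest and lowest library as H2-D1, as do the fibroblast sum and B2m over narrower ranges.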

How the data were processed

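The authors deposited 1 table with, per gene and library, a count of allele-assigned reads, the fraction of those reads that is paternal, and FPKM, per the file headers. The submitters' processing notes name mm9, Cufflinks 2.2.1 and Cuffdiff, with no role. Per the labels' protocols, TRIzol RNA went into stranded libraries of mRNA. The sources used here do not give the aligner, the variant list, the annotation or any scaling of FPKM between libraries. The table's 6 columns of other samples were not used. Allele-assigned reads cover strain variants only, and depth behind FPKM is unknown.

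FPKM were tested as log2(FPKM + 1), which understates ratios of low genes, for 11471 genes with a mean of at least 1 FPKM. The model in limma 3.58.1, with trend, held Smchd1 genotype and Xist mutation as terms, with Benjamini-Hochberg adjustment. That test measures the spread between these 4 libraries alone. Within a pair, genes at least 2-fold apart were counted by size. The deposited fraction times the read count gave whole paternal reads for 100% of values, within 1e-06, and these were tested with Fisher's exact test for 9923 genes with at least 20 reads in all 4 libraries. Intervals are Clopper-Pearson at 95%, and the limit for 0 reads is 3 reads of the total. edgeR 4.0.16 and DESeq2 1.42.0 on the read counts, pseudocount, filters, normalization and left-out libraries were the alternatives. The tests were tried on simulated data. Shared stretches are runs of 100 bases found in GENCODE transcripts of another gene, and class I genes with at least 10% of them shared, or listed over the same locus as another, were flagged and left out of the class I sum as an alternative. Starts in the table count from 0 and are printed counted from 1. Genes named are the members with a mean of at least 1 FPKM or at least 20 reads in all 4 libraries, the others by range, and the highest genes of each list. The members and the gene lists were chosen with earlier results of these data known.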

Additional observations from a re-analysis of the deposited data

Results flagged for a closer look

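The change in the paternal share of H2-K1 differed between both pairs. The difference of its log odds ratios, Xist1lox/+ minus XistdeltaA/+, was -1.81 (adjusted p = 7.7e-10 over 9923 genes), with a lower share in MD1/MD1 in both pairs. Both MD1/MD1 shares were residual, with 84 paternal reads of 3488 with XistdeltaA/+ and 16 of 3399 with Xist1lox/+. The difference thus depends on these few reads as well as on the +/+ shares. H2-K1 also had by far the most allele-assigned reads of the H2 genes tested. H2-D1 had log2 FPKM ratios of 1.71 in the XistdeltaA/+ pair and -0.01017 in the Xist1lox/+ pair, which lie in opposite directions, and the difference was not tested. The same holds for H2-DMa, with 0.20 in the XistdeltaA/+ pair and -0.10 in the Xist1lox/+ pair, also not tested.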

How the results depend on the processing

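The number of genes called for Smchd1 genotype was 4 by limma, 0 with no filter on low FPKM, 22 by edgeR with no filter and 22 by DESeq2, and 9 to 24 with 1 library left out. The leave-one-out fits also drop the Xist term, without which all 4 libraries gave 6, and assume that a lone library varies like the other genotype. H2 genes called stayed at 0 in those fits apart from the leave-one-out fits, which gave 0 to 1. The 1 was H2-Q8 without the +/+ XistdeltaA/+ library. For the Xist mutation, edgeR with no filter called 11 genes and DESeq2 called 4, against 0 by limma. With a pseudocount of 0.1, 4 H2 genes were at least 2-fold higher with XistdeltaA/+ in place of 2, and 1 (H2-Q8) in both pairs in place of 0. With at least 50 reads per library, 6 H2 genes remained to be tested for paternal share and 6 were called lower with XistdeltaA/+ in place of 10, since fewer genes were tested. Leaving out flagged copies, H2-D1 among them, brought the class I folds to 1.26 and 1.05, in place of 1.72 and 1.22. With H2-D1 and H2-L kept, an alternative chosen after seeing the data, they were 1.76 and 1.04. None of 34 log2 ratios of H2 genes changed sign under another pseudocount or quantile normalization, and none of the 22 that allele-assigned reads could give. H2-Bl, H2-Q2, H2-Q4, H2-Q7 and H2-Q8 were not among those 22, and H2-Bl turned to 6.56 by edgeR with no filter. The causes of the other changes were not tested. The Xist term of the limma model pairs the libraries by Xist mutation. The allele-assigned reads limit shares of all but H2-K1, and 20 H2 genes have none.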
